A study of Mus musculus with 8 samples.

Results

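Immediate early and stress response genes were followed in flow-sorted brain astrocytes of 4 wild-type mice at postnatal day 29. The set holds 34 genes, listed by name as immediate early, heat shock and dissociation-linked genes and matched by Ensembl identifier to 34 of the 55417 gene rows. From every animal both regions were sequenced, so that 4 cortical libraries (2 female, 2 male) stood against 4 subcortical libraries of the same animals (2 female, 2 male), with no treatment named in the labels. Libraries are named by region and mouse number, and mice 1 and 4 were male and mice 2 and 3 female. The title of the series concerns β-adrenergic signalling in astrocytes of female mice. The labels do not say how the cells were gated, how long dissociation and sorting took, or in which order the animals were handled.

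Immediate early genes are transcribed within minutes of a stimulus without new protein synthesis, because their promoters are bound by factors that are already present, such as CREB and serum response factor, and that kinases switch on. Many encode transcription factors (the AP-1 subunits of the Fos and Jun families, the Egr zinc finger factors and the Nr4a orphan nuclear receptors), and others encode proteins that end the response, such as phosphatases and proteins that destabilise messenger RNA. Heat shock genes encode chaperones that refold damaged proteins, and both kinds of gene are known to be induced in brain cells by enzymatic dissociation and sorting as well as by signals in the living tissue. Receptors that raise cyclic AMP, β-adrenergic receptors among them, act on several of these genes through CREB.

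Promoters of the genes that the results turn on are shown to compare matches to short motifs known from promoters of immediate early and heat shock genes. A match was found by its letters only, and whether it acts in these genes was not tested. The entries are from RefSeq (build GRCm38.p6, another build than the GRCm39 of the counts), which held 28 of the 34 members; Egr1, Egr3, Arc, Ier2, Hspa8 and Hsp90aa1 had no entry. Each line gives the 250 bases before the annotated start, 5′ to 3′ on the gene's strand. Capitals mark the full cAMP response element TGACGTCA, its half-site TGACG (or CGTCA on the other strand), and TGACATCA, the AP-1-like element known from the Jun promoter. Jun lies at chr4:95052223-95052472 (minus strand), Btg1 at chr10:96616751-96617000 (plus), Dusp1 at chr17:26508473-26508722 (minus), Ier5 at chr1:155099637-155099886 (minus) and Fos at chr12:85473640-85473889 (plus).
Jun: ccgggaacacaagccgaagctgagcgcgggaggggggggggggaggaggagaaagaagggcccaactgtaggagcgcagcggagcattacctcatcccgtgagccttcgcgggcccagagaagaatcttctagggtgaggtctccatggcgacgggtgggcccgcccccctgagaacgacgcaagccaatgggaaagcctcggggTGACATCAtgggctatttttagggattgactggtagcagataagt
Btg1: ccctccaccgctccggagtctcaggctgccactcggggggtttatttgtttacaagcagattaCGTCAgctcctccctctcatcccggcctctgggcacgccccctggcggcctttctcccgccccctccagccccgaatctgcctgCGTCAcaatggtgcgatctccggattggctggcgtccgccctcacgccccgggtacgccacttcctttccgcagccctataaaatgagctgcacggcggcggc
Dusp1: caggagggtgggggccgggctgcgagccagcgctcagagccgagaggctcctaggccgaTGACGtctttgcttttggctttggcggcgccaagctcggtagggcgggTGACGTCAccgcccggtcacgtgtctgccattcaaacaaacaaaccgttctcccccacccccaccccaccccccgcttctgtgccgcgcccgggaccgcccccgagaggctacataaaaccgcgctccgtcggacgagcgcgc
Ier5: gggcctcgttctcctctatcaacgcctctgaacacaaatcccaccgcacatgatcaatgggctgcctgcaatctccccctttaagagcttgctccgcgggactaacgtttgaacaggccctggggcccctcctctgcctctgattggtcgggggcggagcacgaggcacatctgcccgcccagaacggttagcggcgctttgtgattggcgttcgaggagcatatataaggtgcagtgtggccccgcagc
Fos: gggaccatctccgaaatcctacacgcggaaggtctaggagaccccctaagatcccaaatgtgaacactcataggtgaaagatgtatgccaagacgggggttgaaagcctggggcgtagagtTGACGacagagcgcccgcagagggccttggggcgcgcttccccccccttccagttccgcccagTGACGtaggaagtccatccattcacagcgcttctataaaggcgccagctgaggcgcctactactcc

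The half-site TGACG, searched on both strands and counted also inside the full element, was present before the start of 15 of the 28 genes, in 17 of their 33 windows, against 17.7% of all 32817 promoter windows. The full element TGACGTCA was found in Dusp1, 143 to 136 bases before the start, and in Btg2, against 1.55% of all windows. TGACATCA was found in Jun, 45 to 38 bases before the start, and in Klf6, against 2.93% of all windows. The Egr site GCGNGGGCG was found in 10 of the 28 genes and 10 of the 33 windows (4.7% of all windows). The CArG box, through which serum response factor acts, was found in Egr2 and Zfp36, in 5 of the 33 windows (1.47% of all windows). Some windows of Egr2 overlap, so its half-sites and CArG boxes were counted repeatedly among the windows. The Ier5 window held none of the searched motifs. The consensus AP-1 element TGANTCA was in 0 of the 33 windows (6.75% of all windows). The heat shock element (GAA, TTC and GAA in a row, each spaced by 2 bases) was in 0 as well (0.466% of all windows). Only exact matches within the 250 bases were searched. Elements further upstream or in a variant form would be missed, so a window without a match does not show that a gene lacks the element. The windows of Hspa1a and Hspa1b, neighbouring copies of the inducible Hsp70 gene, differed at 3 of 250 bases. The windows lie before the transcripts, so they do not show how reads were assigned to each copy.

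Gene counts summed to 3537852 to 4060891 per cortical and 2484717 to 3829804 per subcortical library, and mitochondrial genes took 8.95 to 11.3% and 9.4 to 13.6% of them. Levels are given in CPM, counts scaled to a common library total, with library sizes multiplied by the TMM (trimmed mean of M-values) factor. Since these libraries read about 1 fragment at the 3′ end of each transcript, CPM were compared between genes without a length correction. All 15 astrocyte markers looked up were detected and tested, and summed to 37180 to 39740 CPM in cortical libraries and 30200 to 32160 CPM in subcortical ones, with 4 called higher (among them Slc1a3 and Slc1a2) and 4 lower (among them Aqp4 and Slc4a4). Markers of other cells were also present, and neuronal, microglial and oligodendrocyte lists differed between the regions (values beside the results below). In bulk RNA, more cells of a type and more RNA per cell cannot be told apart. The samples of a region are different animals, and p-values of the main region test measure the spread between them. That test leaves out the pairing of libraries by mouse. The fit with the mouse as a block compares libraries within a mouse.

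Mean levels of the members ran from 0 CPM (Atf3 and Egr2) to 364.3 CPM (Nfkbia), and were not ranked against all genes. Over the 8 libraries 3 members averaged 100 CPM or more, namely Nfkbia, Hspa8 and Hsp90aa1; 9 averaged 10 to 100 CPM, 15 averaged 1 to 10 CPM and 7 were under 1 CPM. Fos, the AP-1 subunit most used as a mark of recent stimulation, averaged 3.93 CPM and did not pass 9.91 CPM in any library. Atf3, a stress-induced AP-1 partner, and Egr2 had 0 counts in all 8 libraries, which allows up to 0.11 CPM over the 8 libraries (3 counts; counting error only). Npas4, a neuron-specific activity factor, had 8 counts, all of them in subcortical 3. Between 4 and 9 of the 34 members were at 0 in a library.

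Summed over all 34 members, the level was 1165, 1142, 1255 and 1193 CPM in cortical libraries 1 to 4 and 1143, 1142, 1096 and 1420 CPM in subcortical libraries 1 to 4. The regions overlapped, with subcortical 4 the highest of the 8. The means were 1189 ± 48.7 and 1200 ± 148 CPM (SD, n = 4), a ratio of 0.99, and per mouse the ratio of cortical to subcortical was 1.02, 1, 1.14 and 0.84. The ratio depended on the scaling, since on raw library totals it was 1.14 in place of 0.99. The TMM factors were 1.03 to 1.15 in cortical and 0.84 to 1.06 in subcortical libraries. The sum is a description and was not tested. The 3 most abundant members made up 56.9 to 69.9% of it in each library, and among them Nfkbia alone stood at 675.6 CPM in subcortical 4. Without the 3, the remaining members summed to 398 to 499 CPM in cortical libraries and 355 to 443 CPM in subcortical ones.

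**Figure D1:**
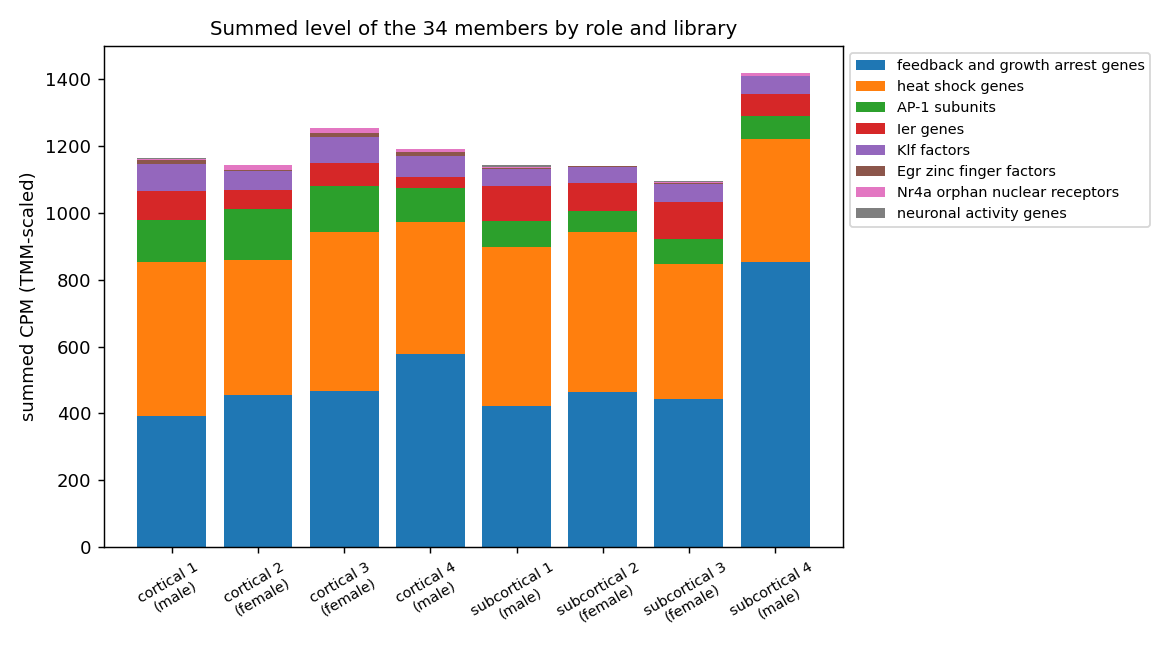
Stacked bars give the summed TMM-scaled CPM of the 34 members in each of the 8 libraries, coloured by role, with the sex of the mouse under each library. Heat shock genes and feedback and growth arrest genes fill most of each bar, and subcortical 4 reaches 1420 CPM, the highest of the 8.

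The summed levels of the 8 roles did not all differ in the same direction. AP-1 subunits summed to 129 ± 21.8 CPM in cortical libraries and 72 ± 6.66 CPM in subcortical ones (SD, n = 4), and the ranges of 100.2 to 152 CPM and 63.92 to 79.48 CPM did not overlap. Jun alone made up most of that difference, with means of 78.1 and 39.97 CPM. Klf factors stood at 69.5 ± 12.2 against 51.6 ± 3.25 CPM, also without overlap. Ier genes went the other way, at 61.8 ± 21.8 against 91.1 ± 20.9 CPM, with overlap. Feedback and growth arrest genes, the role with the highest sum, stood at 473 ± 76.6 against 546 ± 206 CPM and overlapped, with subcortical 4 highest at 853.4 CPM. Heat shock genes stood at 435 ± 40.6 against 431 ± 54.8 CPM. The 3 roles with low sums overlapped as well, at 9.74 ± 4.46 against 2.57 ± 1.26 CPM for Egr factors, 9.71 ± 5.70 against 3.43 ± 3.73 CPM for Nr4a receptors and 1.47 ± 1.71 against 2.48 ± 2.20 CPM for neuronal activity genes.

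Jun, an AP-1 subunit, and Btg1, an antiproliferative gene, were higher in cortical than in subcortical libraries, by 1.95-fold and 4.14-fold over 4 libraries of each region. Dusp1, which encodes a phosphatase, lay on the same side and Ier5 on the other, and both were called only when libraries were compared within a mouse or under single other settings. Of the 34 members, 21 passed the filter on low counts and were tested between the regions. The other 13 (Fosb, Atf3, Egr2, Egr3, Nr4a1, Nr4a3, Arc, Npas4, Ier2, Klf2, Zfp36, Gadd45b and Socs3) had 0 to 89 counts in total. The test was edgeR's quasi-likelihood test with Benjamini-Hochberg adjustment over all 11781 tested genes. By it 2 of the 21 were higher in cortical libraries (Jun and Btg1), 0 were lower and 19 were not called. Over all tested genes 3.42% were called higher and 3.39% lower, which is 6.81% in either direction. With the mouse as a block 3 members were higher (Jun, Btg1 and Dusp1) and 1 was lower (Ier5), against 3.72% and 3.79% of all genes (7.51% in either direction). The median log2 fold change, cortical minus subcortical, was 0.44 over the 21 members and -0.01 over all tested genes, and 14 of the 21 were positive against 49.1% of all. The filter can let a member pass through the region where it is high, so these counts describe the 21 and not the 34.

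**Figure D2:**
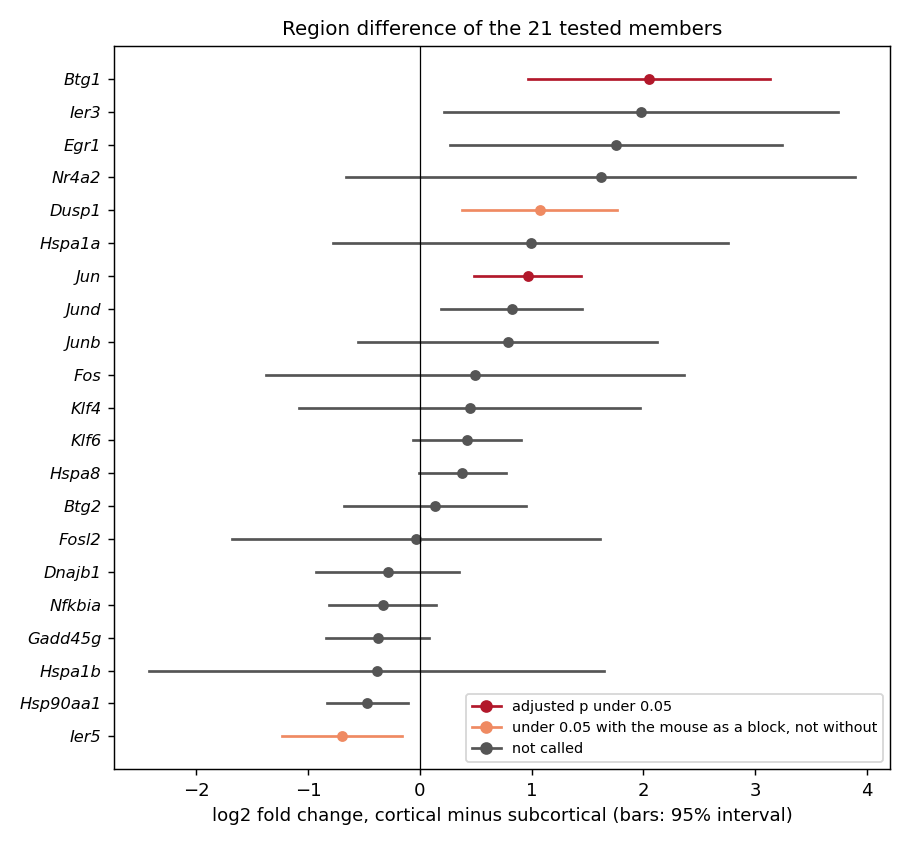
Points give the log2 fold change, cortical minus subcortical, of the 21 tested members and bars the 95% interval. Btg1 (2.05) and Jun (0.96) are the 2 called, and Dusp1 (1.07) and Ier5 (-0.70) are not called here but are in the fit with the mouse as a block.

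The AP-1 subunits pair as Fos and Jun family dimers that bind the AP-1 element. Jun (ENSMUSG00000052684), whose promoter carries the TGACATCA element printed above, stood at 93.8, 82.1, 82.0 and 54.4 CPM in cortical libraries 1 to 4 and at 48.7, 32.2, 41.9 and 37.1 CPM in subcortical libraries 1 to 4. Every cortical library was above every subcortical one, with cortical 4 the lowest of the cortical group. The cortical level was 1.95-fold higher (log2 fold change 0.96, SE 0.23, edgeR adjusted p = 0.00989), and per mouse the ratio was 1.93, 2.55, 1.96 and 1.47. The call held without each single library in turn (adjusted p 0.00299 to 0.0487) and was lost without both libraries of mouse 1, 2 or 3 (adjusted p 0.0554, 0.0796 and 0.0625), where 3 mice remained.

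Jund, the family member that is usually present before any stimulus, stood at 20.8, 29.98, 32.0 and 33.0 CPM in cortical libraries and 20.4, 12.5, 17.1 and 15.3 CPM in subcortical ones. The regions did not overlap, though cortical 1 and subcortical 1 were nearly equal, with a ratio of 1.02 in mouse 1 and of 1.87 to 2.4 in the others. With a log2 fold change of 0.82 (SE 0.30, 95% interval 0.19 to 1.46) it was not called (edgeR adjusted p = 0.127). Junb ranged from 2.17 to 26.9 CPM in cortical libraries and from 3.33 to 10.8 CPM in subcortical ones, and Fos from 0.248 to 9.91 and from 2.08 to 5.29 CPM. Fosl2, a slower Fos family member, ranged from 1.17 to 8.67 and from 1.05 to 7.21 CPM. These 3 overlapped between the regions, and their 95% intervals of the log2 fold change reached from -0.55 to 2.13, from -1.38 to 2.36 and from -1.68 to 1.61. Fosb had 7 counts, 5 of them in subcortical 3.

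Among the Egr factors only Egr1, a zinc finger factor induced by growth factor and synaptic signals, was tested. It stood at 9.92, 3.13, 9.11 and 12.5 CPM in cortical libraries and 3.75, 1.92, 3.495 and 1.11 CPM in subcortical ones. The cortical library was higher in all 4 mice, and the regions overlapped through cortical 2. The log2 fold change of 1.75 (SE 0.71, 95% interval 0.27 to 3.24) was not called (edgeR adjusted p = 0.183). Egr3 had 18 counts in cortical libraries 1 and 3 and 0 in all 4 subcortical libraries, which allows up to 0.274 CPM there.

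The Nr4a genes encode nuclear receptors that act without a known ligand and are induced by cyclic AMP. Nr4a2 stood at 1.99, 5.74, 7.24 and 7.47 CPM in cortical libraries and at 6.69 CPM in subcortical 4, while subcortical 1, 2 and 3 had 0 counts. All 24 subcortical counts thus came from mouse 4. Its log2 fold change was 1.62 (SE 1.10, edgeR adjusted p = 0.515). Without subcortical 4 the adjusted p was 0.016, with all remaining subcortical libraries at 0. Nr4a1 had 47 and Nr4a3 20 counts in cortical libraries, and 15 and 5 in subcortical ones. Arc, which encodes a neuronal cytoskeletal protein of synapses, had 3.23, 0, 0 and 2.65 CPM in cortical libraries and 4.99, 1.44, 0.699 and 0 CPM in subcortical ones, and both cortical values above 0 were of male mice.

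Ier5, which encodes a regulator of heat shock factor activity, was the highest of the Ier genes, at 82.4, 46.4, 58.2 and 30.6 CPM in cortical libraries and 101.1, 82.7, 105.2 and 64.6 CPM in subcortical ones. The cortical library was lower in all 4 mice, by a subcortical to cortical ratio of 1.23, 1.78, 1.81 and 2.11, while the regions overlapped, since mouse 4 was lowest and mice 1 and 3 highest in both. The unblocked log2 fold change was -0.70 (SE 0.26, edgeR adjusted p = 0.128), and with the mouse as a block it was -0.76 (adjusted p = 0.0248). Ier3, an inhibitor of apoptosis, stood at 3.97, 12.5, 9.11 and 3.37 CPM in cortical libraries and 2.91, 0.961, 3.15 and 0.279 CPM in subcortical ones. Its regions did not overlap, but it was not called (log2 fold change 1.98, SE 0.85, adjusted p = 0.213). Ier2 had 12 counts in total.

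The Klf factors are zinc finger regulators of vessel, immune and glial genes. Klf6 stood at 73.4, 40.9, 69.9 and 57.1 CPM in cortical libraries and 49.5, 44.2, 44.4 and 42.1 CPM in subcortical ones, with overlap through cortical 2. With a log2 fold change of 0.42 (SE 0.23, 95% interval -0.06 to 0.90) it was not called (edgeR adjusted p = 0.378). The window of Klf6 held TGACATCA, as that of Jun did. Klf4 ranged from 2.65 to 11.5 CPM in cortical libraries and from 0.832 to 12.3 CPM in subcortical ones. Klf2, a factor prominent in endothelium and microglia, had 40 counts in total. The endothelial marker list summed to 153.4 to 279.5 CPM in cortical libraries and 153.3 to 183.5 CPM in subcortical ones, with Tek and Cdh5 at 0 counts in all.

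Btg1 (ENSMUSG00000036478), an antiproliferative partner of the messenger RNA deadenylase complex, stood at 15.1, 17.2, 15.9 and 19.8 CPM in cortical libraries and 7.07, 2.40, 5.59 and 1.39 CPM in subcortical ones. The regions were well apart, and the cortical spread was narrow, at 16.99 ± 2.03 against 4.12 ± 2.66 CPM (SD, n = 4). The cortical level was 4.14-fold higher (log2 fold change 2.05, SE 0.52, edgeR adjusted p = 0.0162), with a ratio from 2.14 in mouse 1 to 14.2 in mouse 4, where the subcortical library was lowest. The call held without each single library (adjusted p 0.0122 to 0.0453) and was lost without both libraries of mouse 2, 3 or 4 (0.0898, 0.0514 and 0.0896). Btg2, its paralogue, did not separate the regions, at 22.2 ± 13.4 against 20.2 ± 2.98 CPM (SD, n = 4). The window of Btg2 held the full cAMP response element, as that of Dusp1 did.

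Dusp1 (ENSMUSG00000024190), the phosphatase gene that switches off MAP kinases and whose promoter holds the full cAMP response element, stood at 35.2, 23.5, 30.8 and 25.1 CPM in cortical libraries and 10.8, 9.13, 21.3 and 12.8 CPM in subcortical ones. Every cortical library was above every subcortical one, by a ratio of 3.26, 2.57, 1.45 and 1.95 per mouse. The log2 fold change of 1.07 (SE 0.33) narrowly missed the threshold (edgeR adjusted p = 0.0573) and was called in the blocked fit (0.0468), by DESeq2 (0.0331) and without subcortical 3 (0.0191), the highest subcortical library.

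Nfkbia, which encodes the inhibitor that holds NF-κB in the cytoplasm, was the most abundant member, at 267.2, 281.3, 312.3 and 429.2 CPM in cortical libraries and 310.8, 330.1, 307.5 and 675.6 CPM in subcortical ones. Mouse 4 was highest in both regions, and the other 6 libraries lay between 267.2 and 330.1 CPM. The log2 fold change was -0.33 (SE 0.23, edgeR adjusted p = 0.522) and 0.028 without subcortical 4. Gadd45g, a growth arrest and stress gene, stood at 73.6 ± 17.2 against 95.3 ± 24.4 CPM (SD, n = 4, log2 fold change -0.38, edgeR adjusted p = 0.431). Gadd45b, Zfp36 (which encodes a protein that destabilises AU-rich messenger RNA) and the cytokine feedback gene Socs3 had 55, 79 and 89 counts in total.

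**Figure D3:**
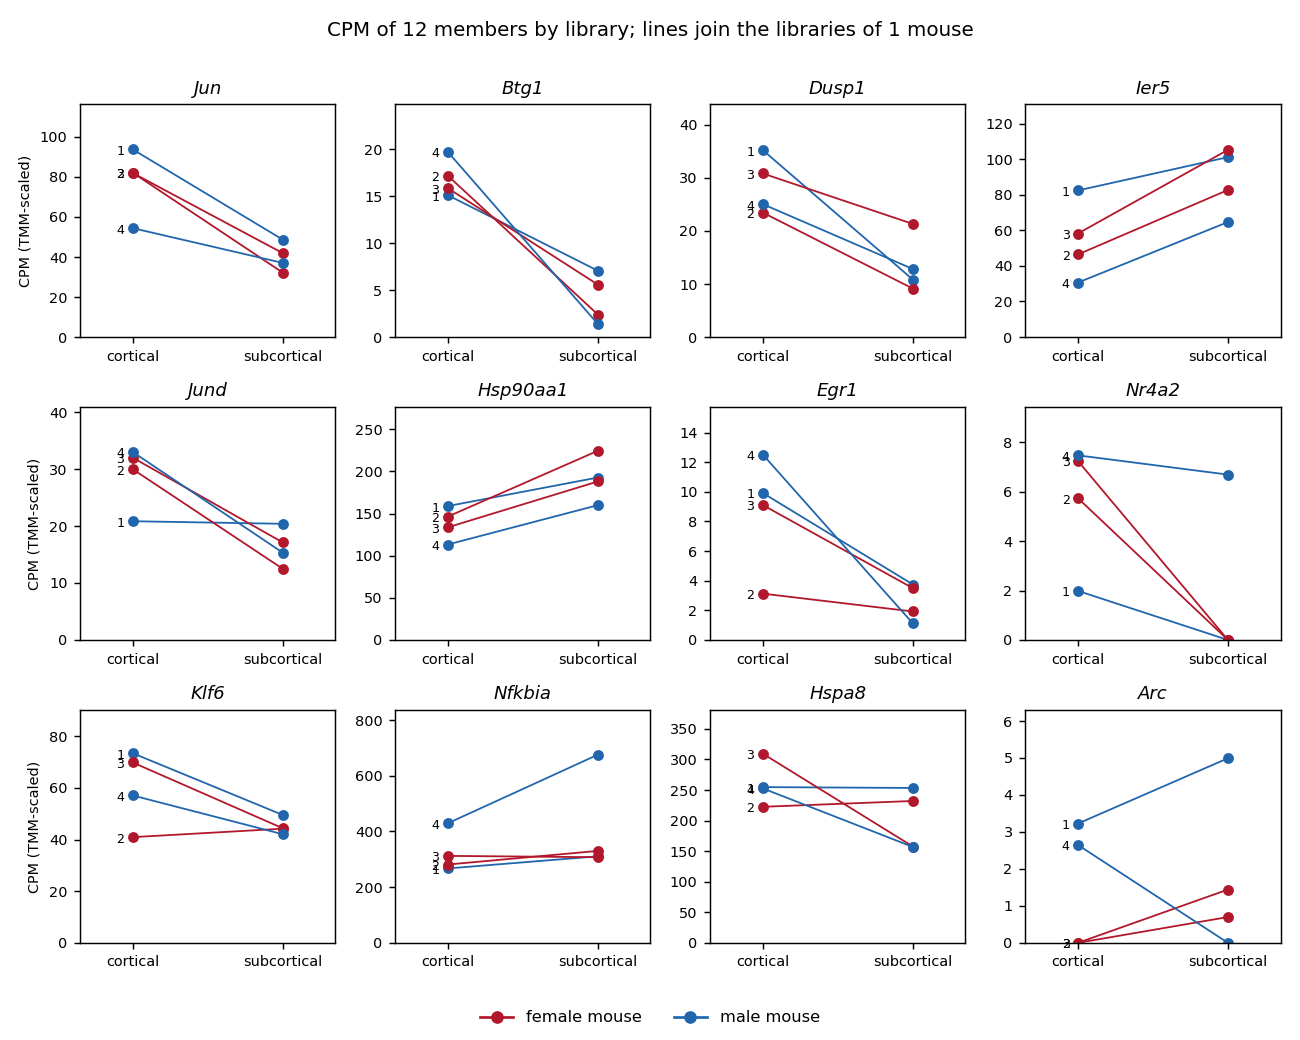
Each panel plots the TMM-scaled CPM of 1 member in the cortical and subcortical library of each mouse, joined by a line, with the mouse number at the left and the sex by colour; each vertical axis starts at 0. In all 4 mice the cortical value lies above the subcortical one for Jun, Btg1 and Dusp1 and below it for Ier5 and Hsp90aa1, and mouse 4 stands above the others for Nfkbia.

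Of the 5 heat shock members 0 were called by edgeR, DESeq2 or limma-voom, with 1 at an unadjusted p under 0.05 by edgeR. Hsp90aa1, the stress-inducible cytosolic Hsp90, stood at 158.8, 146.3, 133.6 and 113.2 CPM in cortical libraries and 192.7, 224.4, 188.0 and 159.9 CPM in subcortical ones. All cortical libraries were below all subcortical ones, cortical 1 by little. The log2 fold change was -0.47 (SE 0.17, 95% interval -0.83 to -0.11, edgeR adjusted p = 0.128). Hspa8, the constitutive Hsc70 gene, stood at 254.8, 222.6, 309.5 and 252.7 CPM in cortical libraries and 253.4, 232.1, 157.6 and 156.9 CPM in subcortical ones. Here mice 3 and 4 differed between the regions and mice 1 and 2 hardly did (log2 fold change 0.38, SE 0.19, edgeR adjusted p = 0.302). The Hsp70 cochaperone gene Dnajb1 stood at 26.7 ± 5.55 against 32.3 ± 13.3 CPM (SD, n = 4). The stress-induced copies Hspa1a and Hspa1b reached at most 9.65 and 10.1 CPM in a library. How reads that fit both copies were counted is not stated, so these values may be too low.

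In all, 5 of the 21 tested members had every cortical library above every subcortical one (Jun, Jund, Ier3, Btg1 and Dusp1), against 6.54% of all tested genes, and 1 had them all below (Hsp90aa1), against 5.64%. At an unadjusted p under 0.05, 6 members were higher and 2 lower (8.85% and 8.53% of all tested genes). The filter can let a member pass through the region where it is high. The members were also chosen with earlier results of these data known. These counts therefore describe the 21 and are not read as a trait of the set. The 2 called members and the 4 others without overlap were spread over the AP-1, Ier, feedback and heat shock roles.

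Markers of other cells moved with region beside these differences. The 16 neuronal markers summed to 459.9 to 857.5 CPM in cortical libraries and 255.7 to 312.1 CPM in subcortical ones, with 3 of 14 tested called higher (Nrgn, Camk2a and Slc17a7) and 1 lower (Nefl). The 17 microglia and macrophage markers summed to 187.3 to 409.7 against 133.1 to 241.2 CPM, with 3 of 12 higher (Cx3cr1, Csf1r and C1qa) and 0 lower. Both sums were highest in cortical 4, where Jun and Ier5 were lowest and Btg1 highest of the cortical libraries. The 10 oligodendrocyte markers summed to 882.3 to 1419 against 2314 to 5846 CPM, with 8 called lower and 0 higher, and none of the 3 lists had a member at 0 throughout. Of the 8 precursor markers 2 of 5 tested were lower (Olig1 and Olig2; Gpr17 at 0 throughout), with sums of 237.5 to 317.3 against 395.9 to 693.2 CPM. Pericyte, smooth muscle and fibroblast markers summed to 571.6 to 1127 against 499 to 1395 CPM (1 of 9 lower, Col1a2; Lum at 0) and ependymal and choroid plexus markers to 26.49 to 68.72 against 52.38 to 674.1 CPM, highest in subcortical 3 (1 of 5 lower, Foxj1). The part of these cells in the differences of Jun, Btg1, Dusp1 and Ier5 was not tested.

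Genes around the members were read from 3 lists of related genes. Of 46 other immediate early genes 28 were tested, of which 0 were higher and 1 lower in cortical libraries. That gene, Ier5l, the paralogue of Ier5, stood at 16.6 ± 4.40 against 46.1 ± 3.47 CPM (SD, n = 4, log2 fold change -1.47, SE 0.27, edgeR adjusted p = 0.00121), so that both Ier5 and Ier5l had lower values in cortical libraries. With the mouse as a block the kinase gene Pim3 was also higher (165.7 ± 50.1 against 105.0 ± 22.1 CPM, adjusted p = 0.0483). DESeq2 called 3 of the 28 lower and limma-voom 2. Of 28 tested kinases and factors upstream of immediate early genes 0 were called by edgeR, DESeq2 or limma-voom (1 at an unadjusted p under 0.05), with a median log2 fold change of 0.03. Of 29 other chaperones and heat shock factors 0 were called by these tools (4 at an unadjusted p under 0.05 by edgeR), with a median of -0.05. With the block 1 of them was lower, the small heat shock gene Cryab, at 67.1 ± 14.96 against 106.4 ± 29.9 CPM (adjusted p = 0.0438). Cryab is also abundant in oligodendrocytes, whose markers were lower in cortical libraries, and their part in its value was not tested.

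The title of the series names female mice, so the members were also compared between the sexes, with 2 mice on each side. On counts summed per mouse, edgeR called 0 of 26 tested members, against 0.0373% of all 13402 tested genes (0.00746% higher in female and 0.0298% higher in male mice); 3 had an unadjusted p under 0.05, against 3.73% of all. DESeq2 also called 0. The 3 were Junb (log2 fold change 2.00, female minus male, unadjusted p = 0.00133), Btg2 (0.85, 0.0174) and Socs3 (-2.51, 0.025), each with an edgeR adjusted p of 0.999. The interaction of sex and region was called for 0 of 27 members and 0% of 13334 genes by edgeR, and for 0 members by DESeq2. An unadjusted p under 0.05 was found for 2 members (Btg2 and Nr4a2), against 3.76% of all genes. That fit leaves out the pairing of libraries by mouse. With the mouse as a block the unadjusted edgeR p was 0.00963 for Btg2 and 0.105 for Nr4a2. All 24 subcortical counts of Nr4a2 came from subcortical 4.

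Within the cortical libraries 9 of the 21 members tested by region lay apart by sex, in both directions and at shares near those of all tested genes. The comparison was added after the values were seen. Both female libraries were above both male ones for 5 members (Fos, Junb, Ier3, Klf4 and Btg2), against 17.2% of all tested genes, and below them for 4 (Fosl2, Egr1, Hspa1b and Dnajb1), against 15.9%. Junb stood at 26.9 and 15.2 CPM in the female mice 2 and 3 and at 4.22 and 2.17 CPM in the male mice 1 and 4. Btg2 stood at 35.2 and 32.0 against 13.4 and 8.19 CPM, and Fos at 9.91 and 6.31 against 0.248 and 1.93 CPM. In the subcortical libraries of the same mice these genes overlapped between the sexes. Junb ranged there from 3.33 to 10.8 CPM and Btg2 from 17.8 to 24.5 CPM. In the other direction, cortical Fosl2 stood at 3.13 and 1.17 CPM in the female and 6.70 and 8.67 CPM in the male mice, and Egr1 at 3.13 and 9.11 against 9.92 and 12.5 CPM. Of the members not tested by region, Nr4a1 and Nr4a3 were higher in both female cortical libraries and Arc and Socs3 in both male ones. In subcortical libraries Ier2 and Klf2 were higher in both female mice and Gadd45b in both male mice. These orders rest on few counts, and the share among genes of like level was not computed.

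**Figure D4:**
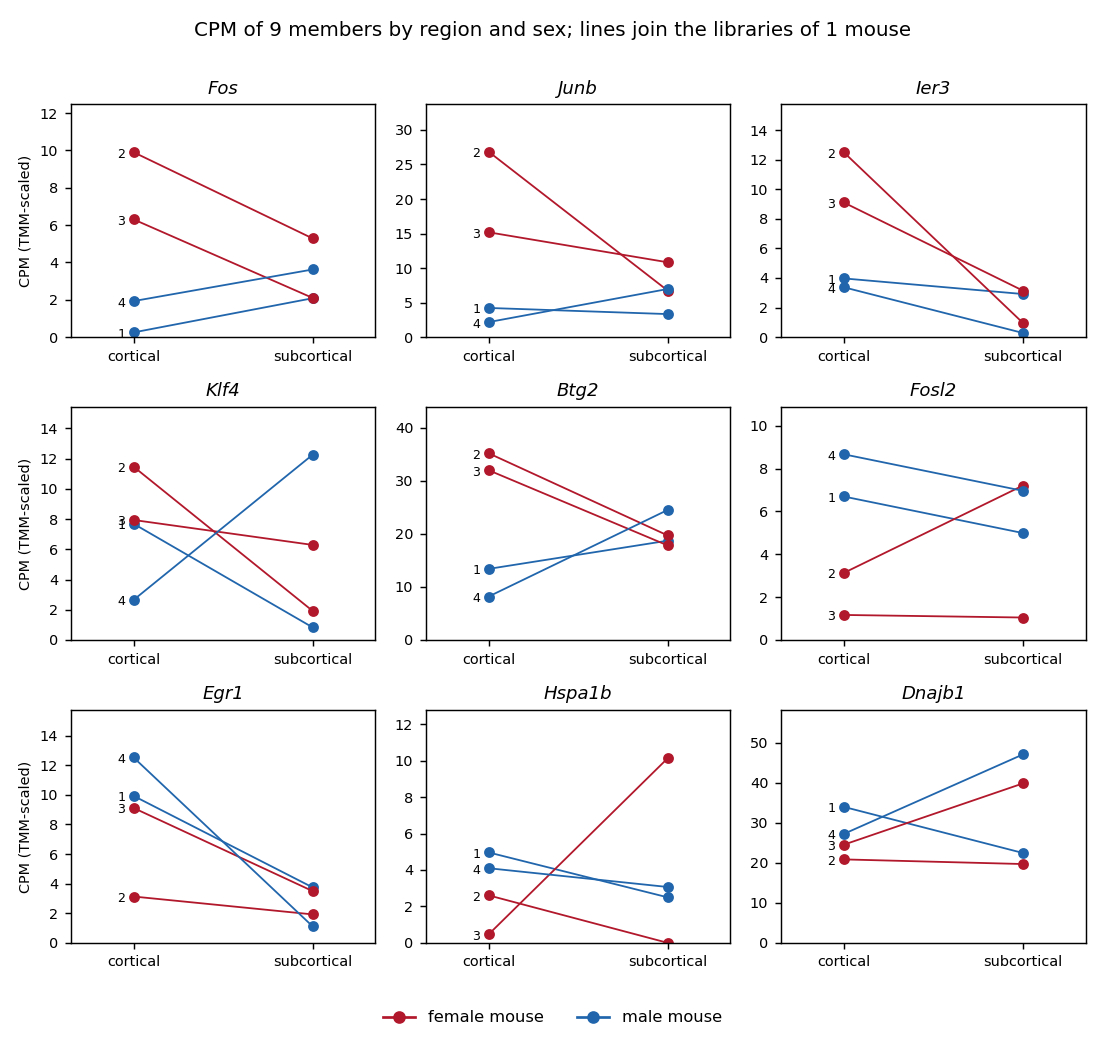
Each panel plots the TMM-scaled CPM of 1 member in the cortical and subcortical library of each mouse, joined by a line and coloured by sex, on axes that start at 0. In cortical libraries the 2 female mice lie above the 2 male mice for Fos, Junb, Ier3, Klf4 and Btg2 and below them for Fosl2, Egr1, Hspa1b and Dnajb1, and subcortical values overlap; none of the 9 was called by sex.

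In the subcortical libraries 1 of the 21 had the female mice above (Hspa1a), against 14.8% of all tested genes, and 0 below, against 16.2%. In the fit of 4 sex and region means, the difference between the sexes within cortical libraries was 2.71 for Junb and 1.64 for Btg2 on the log2 scale, with unadjusted p of 0.00231 and 0.00192 and edgeR adjusted p of 0.787 and 0.774. Of all genes 4.12% had an unadjusted p under 0.05 in this contrast and 0.0375% were called, with 0 members among them. The cortical library was the higher one in both female mice and the lower one in both male mice for 2 of the 21 members (Fos and Btg2), against 4.38% of all tested genes, and the reverse held for 0 of the 21, against 4.34%. For Btg2 the interaction was 1.85 on the log2 scale (unadjusted p = 0.00971, edgeR adjusted p of 1). With 2 mice of each sex, sex cannot be told apart from what else the 2 mice had in common.

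The spread of the members among animals was set beside that of other genes. The biological coefficient of variation of edgeR had a median of 37.9% over the 21 members and 33.9% over all tested genes. It lay above the trend for genes of the same abundance in 12 of the 21 members, against 38.3% of all, with a median ratio to the trend of 1.01. The steadiest members were Hsp90aa1 (18.4%) and Hspa8 (19.9%), and the most variable Nr4a2 (93.2%) and Hspa1b (82.6%). Deviations from the region means in the cortical and the subcortical library of a mouse correlated over the 21 members at 0.27, 0.18, 0.01 and 0.30 in mice 1 to 4, beside 0.05, 0.04, 0.02 and 0.07 over all tested genes; the points share a library and a scaling factor. No library was high for all members: the highest cortical value fell to cortical 1 in 7 members, cortical 2 in 7, cortical 3 in 1 and cortical 4 in 6, and the highest subcortical value to libraries 1 to 4 in 6, 3, 6 and 6 members. Over all tested genes the shares were 23.8, 24.7, 23.5 and 28.1% for cortical 1 to 4. For subcortical 1 to 4 they were 23.4, 25.9, 24.6 and 26.1%.

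**Figure D5:**
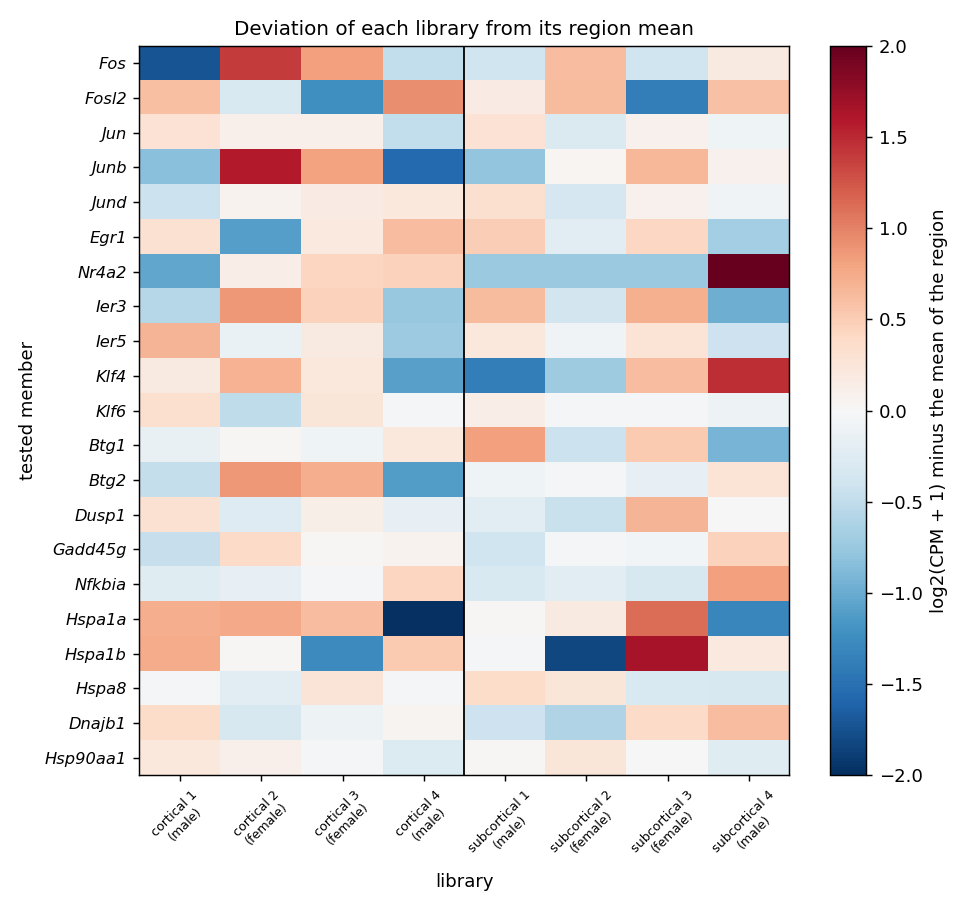
Rows are the 21 tested members and columns the 8 libraries, and colour gives log2(CPM + 1) minus the mean of the region, with red above and blue below. Fos, Junb, Ier3 and Btg2 are red in cortical 2 and 3 and blue in cortical 1 and 4, and the deepest red of subcortical 4 is Nr4a2.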

How the data were processed

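RNA of flow-sorted astrocytes was extracted and made into libraries with a forward 3′ mRNA kit (QuantSeq), per the labels' protocols. Raw counts of reads per gene, as the authors deposited them for each library, were the starting point. STAR 2.6.0, HTSeq 0.9.0, FastQC 0.11.5, DESeq2 1.35.0 and the build GRCm39 are named, without settings, in the submitters' processing notes. Each table held 55417 gene rows and 5 HTSeq summary rows, which stayed out of all totals; reads assigned to no feature were 30.2 to 40.7% of a library's gene, ambiguous and no-feature total. The sources used here do not say whether strand or molecular identifiers were used. A table of normalized values with 8 columns was not used.

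Counts were fitted with edgeR 4.0.16 (R 4.3.3): filterByExpr (10 counts, 15 in total), TMM, quasi-likelihood tests and Benjamini-Hochberg adjustment at 0.05 over all tested genes. Region was tested over all 8 libraries, sex on counts summed per mouse and the interaction in a fit of 4 sex and region means. Fits were tested on simulated data. Alternatives were DESeq2 1.42.0, limma-voom (limma 3.58.1), other size factors and filters, the mouse as a block, sex as a covariate, a threshold of 0.01 and leaving out libraries or mice; thinning and sex within a region were added after the data were seen. Mouse numbers in the titles pair the samples, since both libraries of a number came from the same animal; same-mouse deviations correlated at 0.02 to 0.07 over all tested genes.

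Members and lists were chosen with earlier results of these data known. Values in every library are given for members called by region, with or without the block, the most abundant of each role and the 6 with the smallest unadjusted p; of lists of other genes, up to 4 called and, for cell markers, the 2 most abundant could be named. Ier3, Pim3, Cryab and the genes shown by sex were chosen after their values were seen. Floors of 3 counts cover counting error only.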

Additional observations from a re-analysis of the deposited data

Results flagged for a closer look

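Dixon's test sets the gap between a library and its nearest neighbour against the range of its group. Of 42 groups of 4 libraries (21 members in each region), 3 passed the 95% critical value. For normally distributed values chance gives about 1 in 20, and CPM with zeros and low counts need not follow that. The share over all tested genes was not computed, so the 3 are described and not read as a trait of the members. Nr4a2 in subcortical libraries had a gap ratio of 1, since subcortical 4 held all counts. Nfkbia in subcortical libraries had 0.939, with subcortical 4 high. Hspa1a in cortical libraries had 0.891, with cortical 4 low at 0.482 CPM beside 8.64 to 9.65 CPM in the others.

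Opposite region differences were seen for 4 of the 27 members with an interaction test. Both female mice differed in 1 direction and both male mice in the other. Fos was higher in the cortical library of both female mice and lower in that of both male mice (interaction 2.52 on the log2 scale, unadjusted p = 0.205 by edgeR), and so were Nr4a1 (4.14, 0.152) and Btg2 (1.85, 0.00971). Socs3 went the opposite way (-3.20, 0.205). The edgeR adjusted p of each was 1, so none of these differences passed the test. Of all genes tested by region 4.38% showed the order of Fos and 4.34% that of Socs3. Fos and Btg2 were among the genes tested by region, and Nr4a1 and Socs3 were not.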

How the results depend on the processing

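The count of 2 members called by region (Jun and Btg1) became 4 with the mouse as a replicate block (adding Dusp1 higher and Ier5 lower), 1 at an adjusted p under 0.01 (Jun), and 0 to 1 without both libraries of a mouse, where fewer samples were fitted (0 without mouse 2 or 3). It was 2 to 3 without single libraries and 2 or 3 under each other setting. Among the members the block changed no other call, of the related genes it added Pim3 and Cryab, and over all genes it called 885 in place of 802. The counts of members called by sex and by the interaction were 0 under all alternatives run. Ier5 was also called without the filter (edgeR adjusted p = 0.0496) and without cortical 1 (0.0327), and Dusp1 after thinning (0.047). Over all genes 802 were called, 477 at an adjusted p under 0.01 and 474 to 677 without a mouse. The ratio of summed levels was 1.14 on raw library totals in place of 0.99, and 0.962 to 1.05 without single libraries. The members whose direction turned under an alternative (Fos, Fosl2, Klf4, Btg2, Nfkbia and Hspa1b) were not called under any setting run. With the block Fos had -0.0783, Btg2 -0.0649 and Hspa1b 0.23; with sex as a covariate Fos -0.0325 and Btg2 -0.0667; with limma-voom Fos -0.27 and Btg2 -0.13; and thinned to the smallest total Fosl2 0.0448. Without single libraries the values reached -0.20 to 0.88 for Fos, -0.45 to 0.29 for Fosl2, -0.18 to 0.41 for Btg2, -0.50 to 0.028 for Nfkbia and -0.78 to 0.66 for Hspa1b. Without mouse 2 Fosl2 had 0.34, Klf4 -0.10 and Btg2 -0.19, and without mouse 3 Btg2 had -0.16 and Hspa1b 1.01. The cause of these turns was not tested. Members under 10 CPM rest on few counts, and their intervals are wide.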
